A study of Mus musculus with 6 samples.

Results

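The red blood cell genes considered here were 9 genes taken by name from the 51802 gene symbols listed for each cochlear library, 4 adult globins (*Hbb-bs*, *Hbb-bt*, *Hba-a1* and *Hba-a2*) and 5 genes of nucleated red cell precursors (*Slc4a1*, *Epor*, *Klf1*, *Gata1* and *Tfrc*). All 9 passed the filter on low counts and were among the 17136 genes tested. Bulk RNA was sequenced from cochleae of mice at 2 months of age on the C57/BL6J background. There were 3 wildtype libraries, numbered 3, 4 and 5, and 3 libraries of *Pou4f3(Δ/+)* littermates, numbered 1, 2 and 3; values are given in that order, and a replicate named without its genotype is from *Pou4f3(Δ/+)*. The *Pou4f3(Δ/+)* mice carried 1 wildtype allele and 1 germline knock-in allele in which a short deletion shifts the reading frame of *Pou4f3*, a hair cell transcription factor gene, so that a truncated protein is made. Both groups have the C57/BL6J background, a strain that is homozygous for the *Cdh23(ahl)* mutation and loses hearing progressively, and no treatment is named for these samples. Neither the labels nor the methods say whether a library came from 1 animal or whether blood was flushed from the tissue before RNA extraction, so p-values measure the spread between these libraries.

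Red blood cells mature from nucleated erythroblasts in bone marrow and spleen. An erythroblast answers erythropoietin through its receptor, takes up iron-loaded transferrin, and is driven by the transcription factors GATA1 and KLF1 to make hemoglobin and the proteins of the red cell membrane. It then expels its nucleus, and the reticulocyte that enters the blood keeps for a while the messenger RNA it already holds, most of it globin RNA, while transcription factor and receptor RNA belongs mainly to the nucleated stages that stay in the marrow. The cochlea lies within bone and is rich in vessels.

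Summed counts ranged from 14295069 to 17696784 per library. The tissue label was checked against 9 cochlear markers, none of which was at 0 in all libraries; the most abundant, *Coch*, the gene of the inner ear matrix protein cochlin, had 2084, 2134 and 2828 FPKM in wildtype and 2030, 2147 and 2095 FPKM in *Pou4f3(Δ/+)* libraries (FPKM is the number of fragments divided by transcript length and library size). *Pou4f3(Δ/+)* replicates 1 and 2 stood apart from the other 4 libraries on the first principal component of all genes tested, which held 32.5% of the variance and on which they scored 23.2 and 40.2 against -21.5 to -11.7. *Pou4f3(Δ/+)* replicate 3 lay among the wildtype libraries, with -16.4. On the second component wildtype replicate 5 stood apart, with -38.3 against -12.3 to 14.7 in the other libraries. The fold changes of the 9 genes and the medians of the gene lists are therefore also given without replicates 1 and 2. The fold changes of the 9 genes are also given without wildtype replicate 5.

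The globin genes lie in pairs (GRCm38). *Hbb-bs* (ENSMUSG00000052305, chr7:103826534-103828096) and *Hbb-bt* (ENSMUSG00000073940, chr7:103812524-103813996) make the adult β chain and lie on the minus strand, and *Hba-a1* (ENSMUSG00000069919, chr11:32283511-32284465) and *Hba-a2* (ENSMUSG00000069917, chr11:32296489-32297298) make the α chain on the plus strand. The coding sequences of each pair differed at 1 base, over 441 bases for the β pair and 426 bases for the α pair. The main transcripts of the β pair shared an unbroken run of 430 bases and those of the α pair a run of 415 bases, and 50.7% to 58.7% of the 150-base windows of a β transcript and 48.4% to 65.7% of those of an α transcript were found in the partner. How reads that fit both genes of a pair were assigned is not given in the sources used here, so the split within a pair is uncertain and the sum of each pair is given beside it.

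Promoters are shown for the 4 globins, to set the members of each pair side by side, and for *Klf1*, *Gata1* and *Epor*, the transcription factors and the hormone receptor of the precursor genes. The RefSeq promoter table (GRCm38.p6, 300 bases around each start) held 9 promoters of 8 of the 9 genes, with 2 for *Tfrc*; *Slc4a1* has no entry. Each line below gives the 120 bases before the RefSeq start, which differs from the GENCODE start of the gene coordinates given here and lies inside the GENCODE gene for all of those shown except *Epor*, farthest inside for *Gata1*. Bases run 5′ to 3′ on the gene's own strand, with capitals marking matches on either strand to a GATA site (AGATAA as well as AGATAG, together with TGATAA plus the variant TGATAG), to the KLF1-type site CCNCNCCC, to the core box CACCC, to the box CCAAT or to the box TATAAA, which may overlap.
Hbb-bs, chr7:103827929-103828048, minus strand: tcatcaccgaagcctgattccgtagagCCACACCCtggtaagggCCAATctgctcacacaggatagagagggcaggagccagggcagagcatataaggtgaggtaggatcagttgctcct
Hbb-bt, chr7:103813924-103814043, minus strand: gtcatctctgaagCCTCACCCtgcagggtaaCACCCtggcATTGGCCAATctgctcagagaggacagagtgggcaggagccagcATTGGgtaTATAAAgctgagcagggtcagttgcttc
Hba-a1, chr11:32283552-32283671, plus strand: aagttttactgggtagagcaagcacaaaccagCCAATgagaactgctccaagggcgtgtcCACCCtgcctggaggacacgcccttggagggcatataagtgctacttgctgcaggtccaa
Hba-a2, chr11:32296372-32296491, plus strand: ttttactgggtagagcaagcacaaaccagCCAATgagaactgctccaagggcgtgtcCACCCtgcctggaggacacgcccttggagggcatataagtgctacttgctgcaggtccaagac
Klf1, chr8:84901862-84901981, plus strand: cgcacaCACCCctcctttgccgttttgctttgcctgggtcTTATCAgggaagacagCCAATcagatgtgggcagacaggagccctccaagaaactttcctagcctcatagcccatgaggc
Gata1, chrX:7967911-7968030, minus strand: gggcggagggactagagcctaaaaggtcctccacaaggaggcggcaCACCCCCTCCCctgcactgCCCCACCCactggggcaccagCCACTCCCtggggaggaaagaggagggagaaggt
Epor, chr9:21963577-21963696, minus strand: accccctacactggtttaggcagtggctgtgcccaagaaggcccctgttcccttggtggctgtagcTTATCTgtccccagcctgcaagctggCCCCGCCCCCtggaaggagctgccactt
Over the full promoter windows a CACCC match was found in 9 of 9 of these promoters and in 57.5% of all 32851 promoters in the table, a CCNCNCCC match in 6 of 9 and 49.5%, a CCAAT match in 6 of 9 and 37.4%, a GATA site in 5 of 9 and 29.8%, and TATAAA in 1 of 9 (*Hbb-bt*) and 13.6%. A CACCC often lies inside a CCNCNCCC, as in the *Hbb-bs* promoter. The α-globin promoters shared an unbroken run of 297 of 300 bases, whereas the longest run common to the β-globin promoters was 14 bases. Matches are descriptions of the letters in these windows.

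Globin RNA was abundant in every cochlear library. The 4 adult globins took 0.804%, 0.757% and 0.709% of the counts in the wildtype libraries, and 0.912%, 1.09% and 0.756% in those from *Pou4f3(Δ/+)* mice. The means were 0.757% ± 0.0476 and 0.919% ± 0.167 (SD, n = 3 each). Replicates 1 and 2 lay above every wildtype library and replicate 3 lay inside the wildtype range, so the groups overlapped. Without replicates 1 and 2 the difference of 0.162 percentage points became -0.0010. Without replicate 2 alone it was 0.0771 and without replicate 3 it was 0.244. By rank of FPKM among all symbols, *Hbb-bs* was 2 or 3 in every library and *Hba-a1* was between 5 and 9.

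*Hbb-bs*, the major β-globin gene here, had 7381, 6830 and 6447 FPKM in wildtype and 8120, 9818 and 6670 FPKM in *Pou4f3(Δ/+)* libraries. Replicate 3 lay inside the wildtype range. Its log2 fold change was 0.25 ± 0.15 (SE; adjusted p = 0.680, edgeR's quasi-likelihood test over all genes), and -0.07 without *Pou4f3(Δ/+)* replicates 1 and 2.

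*Hbb-bt*, the minor β-globin gene, had 951, 929 and 817 FPKM in wildtype and 1315, 1322 and 1088 FPKM in *Pou4f3(Δ/+)* libraries, and its groups did not overlap. Its log2 fold change of 0.47 ± 0.11 had the smallest unadjusted p of the 9 genes, 0.0024, but did not pass after adjustment over all genes (adjusted p = 0.643 with edgeR). DESeq2 on the same counts called it (log2 fold change 0.47, adjusted p = 0.0135), and so did edgeR without *Pou4f3(Δ/+)* replicate 3 (0.57, adjusted p = 0.0347), a setting that called 0.651% of all genes as higher. The range over 15 alternatives was 0.0135 to 1.00, with 2 passing. Summed with *Hbb-bs*, so that the split of shared reads has no part, the β pair had a log2 fold change of 0.28 ± 0.14 (adjusted p = 0.656 with edgeR). *Hbb-bt* made up 12.6%, 13.2% and 12.4% of the counts of the β pair in wildtype and 15.3%, 13.1% and 15.4% in *Pou4f3(Δ/+)* libraries. Replicates 1 and 3 lay above the wildtype range and replicate 2 inside it.

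*Hba-a1*, the major α-globin gene here, had 3969, 3758 and 3522 FPKM in wildtype and 4477, 5275 and 3823 FPKM in *Pou4f3(Δ/+)* libraries, with replicate 3 inside the wildtype range and a log2 fold change of 0.30 ± 0.14 (adjusted p = 0.645 with edgeR). Its counts came from 2 transcripts. The protein-coding ENSMUST00000093209 carried 74.8% to 88.5% of them and had 2803 ± 148 FPKM in wildtype and 3617 ± 778 in *Pou4f3(Δ/+)* libraries, while ENSMUST00000142555, annotated as retaining an intron, had 946 ± 368 and 908 ± 94.1 FPKM (SD, n = 3). Neither transcript passed the test over all transcripts (both adjusted p = 0.999 with edgeR).

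*Hba-a2*, the minor α-globin gene, was the one globin in which replicates 1 and 2 were not the 2 highest libraries. It had 409, 370 and 214 FPKM in wildtype and 309, 509 and 208 FPKM in *Pou4f3(Δ/+)* libraries, and replicate 1 lay inside the wildtype range. Its log2 fold change was 0.05 ± 0.33 (adjusted p = 0.971 with edgeR) and turned to -0.18 without wildtype replicate 5, to -0.36 without *Pou4f3(Δ/+)* replicate 2 and to -0.69 without replicates 1 and 2. *Hba-a2* made up 8.27%, 7.81% and 4.80% of the α pair's counts in wildtype and 5.54%, 7.42% and 4.43% in *Pou4f3(Δ/+)* libraries. Summed, the α pair had a log2 fold change of 0.28 ± 0.14 (adjusted p = 0.659 with edgeR), close in value to that of the β pair.

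Hemoglobin needs α and β chains in equal number, and the α and β pairs varied together between libraries. The ratio of summed α-globin to summed β-globin FPKM was 0.525, 0.532 and 0.514 in wildtype and 0.507, 0.519 and 0.520 in *Pou4f3(Δ/+)* libraries. Its mean was 0.524 ± 0.0089 and 0.515 ± 0.0070 (SD, n = 3), and the groups overlapped. The summed globin level itself differed more between libraries than this ratio, from 2.36% to 3.55% of all FPKM.

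**Figure D1:**
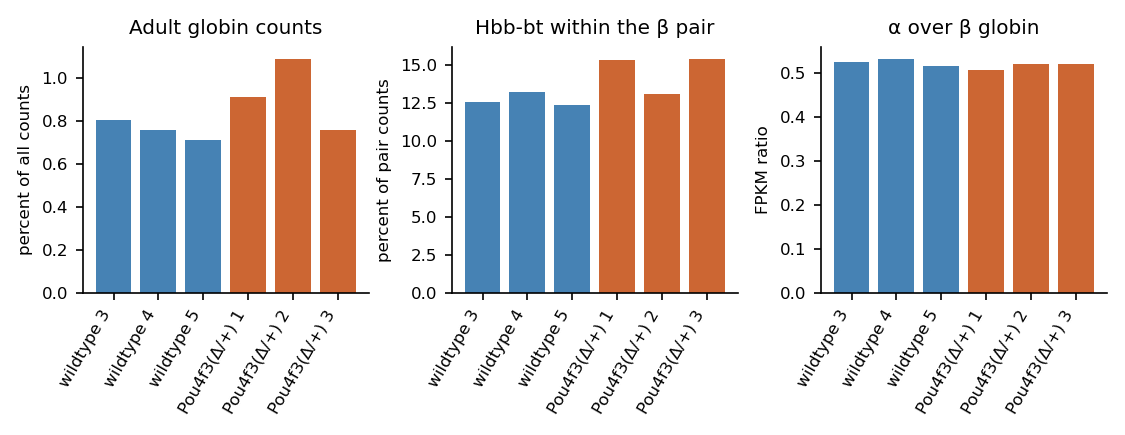
Bars give, for each of the 6 libraries, the share of all counts held by the 4 adult globins (percent), the share of *Hbb-bt* in the counts of the β pair (percent) and the ratio of α-globin to β-globin FPKM; blue is wildtype and orange *Pou4f3(Δ/+)*. The globin share reached 1.09% in *Pou4f3(Δ/+)* replicate 2 while the α to β ratio stayed between 0.507 and 0.532.

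Of the other globins, 8 embryonic and minor genes were listed. The embryonic globins were at or near 0: *Hbb-bh0*, *Hbb-bh2* and *Hbb-bh3* had 0 counts in all libraries, and *Hbb-y*, *Hbb-bh1* and *Hba-x* had between 0 and 3 counts in any library. *Hbq1a*, a θ-globin gene, had 2 to 10 counts, and only *Hbq1b* passed the filter, with 9.60 ± 3.62 FPKM in wildtype and 9.92 ± 2.66 in *Pou4f3(Δ/+)* libraries and a log2 fold change of 0.04 ± 0.31 (adjusted p = 0.975 with edgeR). Its direction was not stable: it was 0.41 without wildtype replicate 3, -0.11 without wildtype replicate 5, -0.09 without wildtype replicate 4, -0.16 without replicate 2 and -0.46 without replicates 1 and 2.

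RNA of nucleated red cell precursors was also present in every library. *Slc4a1* (ENSMUSG00000006574, chr11:102348824-102366203, minus strand) encodes band 3, the anion exchanger of the red cell membrane. It had 225, 227 and 162 FPKM in wildtype and 317, 246 and 230 FPKM in *Pou4f3(Δ/+)* libraries. The groups did not overlap, but by a narrow margin, since replicate 3 had 1027.4 CPM (counts scaled to library size with edgeR's TMM factors) and wildtype replicate 3 had 1025.0. The log2 fold change was 0.37 ± 0.16 (unadjusted p = 0.0477, adjusted p = 0.643 with edgeR), and 0.23 without wildtype replicate 5.

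*Epor* (ENSMUSG00000006235, chr9:21958897-21963506, minus strand), the erythropoietin receptor gene, was the lowest of the 9 genes. It had 14.0, 15.9 and 13.4 FPKM in wildtype and 23.2, 16.1 and 14.2 FPKM in *Pou4f3(Δ/+)* libraries. Replicate 1 stood above the other 5 libraries, and the log2 fold change was 0.28 ± 0.15 (adjusted p = 0.661 with edgeR). A second *Epor* transcript, ENSMUST00000213181, had 65.2 counts in replicate 1 and 6.21 to 19.0 in the other 5 libraries.

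*Klf1* (ENSMUSG00000054191, chr8:84901928-84905291, plus strand) encodes the zinc finger factor that binds CACCC boxes of the β-globin promoter. It had 43.7, 42.3 and 30.3 FPKM in wildtype and 69.1, 52.2 and 39.2 FPKM in *Pou4f3(Δ/+)* libraries, a log2 fold change of 0.47 ± 0.21 (adjusted p = 0.643 with edgeR). Replicate 3 lay inside the wildtype range, and without replicates 1 and 2 the value was -0.0029.

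*Gata1* (ENSMUSG00000031162, chrX:7959260-7978071, minus strand), the gene of the master factor of red cells and megakaryocytes, had 28.0, 29.5 and 20.4 FPKM in wildtype and 38.0, 36.4 and 24.9 FPKM in *Pou4f3(Δ/+)* libraries. Its log2 fold change was 0.35 ± 0.18 (adjusted p = 0.660 with edgeR), and replicate 3 again lay inside the wildtype range.

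*Tfrc* (ENSMUSG00000022797, chr16:32608920-32632794, plus strand) encodes the transferrin receptor, which erythroblasts carry in great number and which other dividing cells use too. It had 111, 114 and 91.4 FPKM in wildtype and 225, 156 and 109 FPKM in *Pou4f3(Δ/+)* libraries. Replicate 1 reached 2.19 times the wildtype mean in CPM and replicate 3 lay inside the wildtype range. The log2 fold change of 0.64 ± 0.24 was the largest of the 9 genes (unadjusted p = 0.0237, adjusted p = 0.643 with edgeR). It was 0.87 without replicate 3 (adjusted p = 0.0617 with edgeR), the smallest adjusted p of this gene over 15 alternatives. Without replicate 1 it was 0.32 (adjusted p = 0.938 with edgeR), below the 0.42 of *Hbb-bt* in that setting, so its size and its rank among the 9 genes rested on that library. The main coding transcript, ENSMUST00000023486, held 67.6% to 88.5% of its counts, and ENSMUST00000128285, annotated as retaining an intron, held 8.72% to 30.3%, with 20.9 ± 7.59 FPKM in wildtype and 38.1 ± 18.6 in *Pou4f3(Δ/+)* libraries (SD, n = 3; adjusted p = 0.999 with edgeR over all transcripts).

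**Figure D2:**
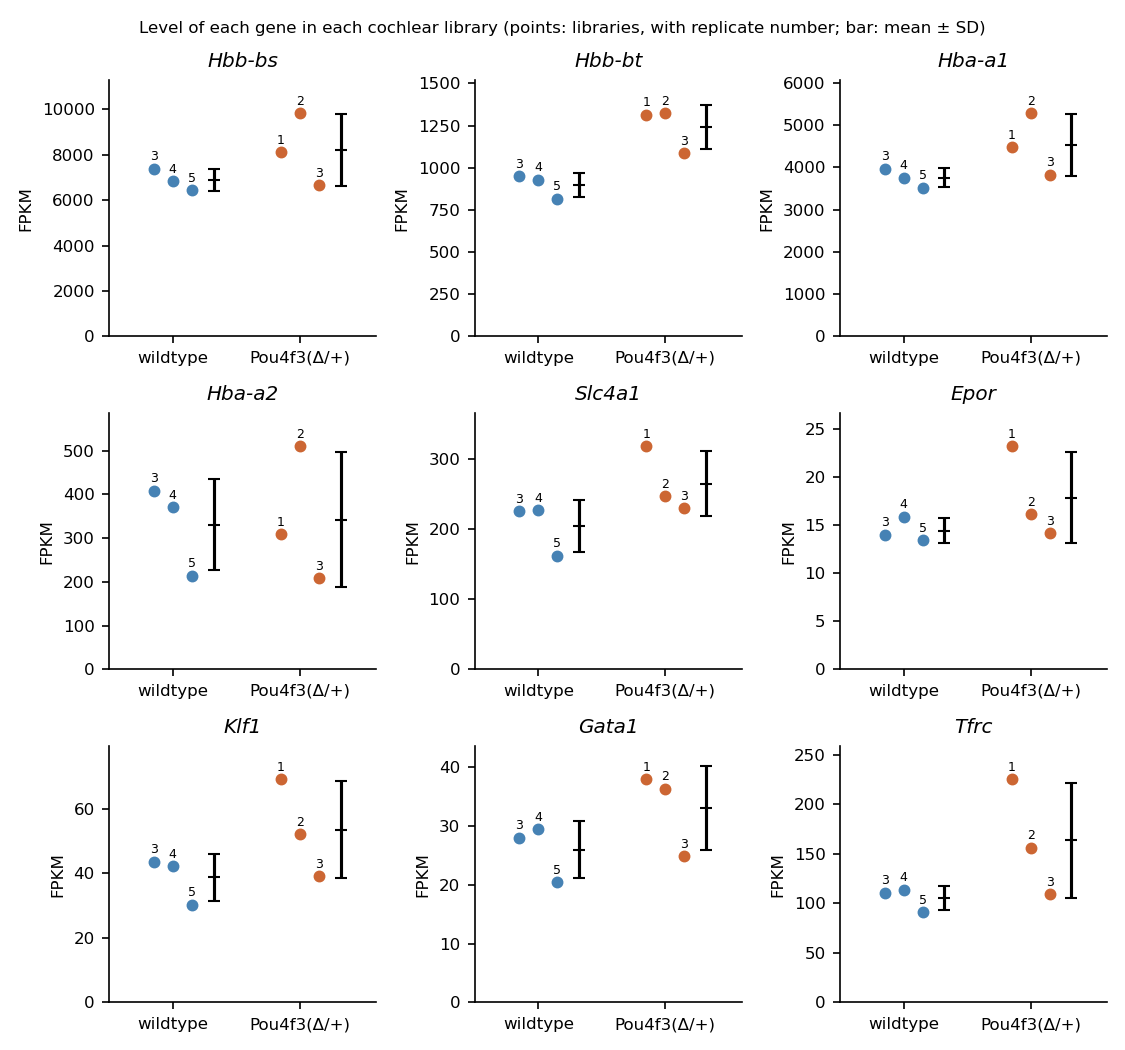
Level of each of the 9 genes in FPKM (vertical axes from 0) in 3 wildtype (blue) and 3 *Pou4f3(Δ/+)* libraries (orange), numbered by replicate, with the mean and SD as a bar. The *Pou4f3(Δ/+)* points lie wholly above the wildtype points for *Hbb-bt* and *Slc4a1* (2 of 9 genes).

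Between genotypes, 0 of 17136 genes had an adjusted p under 0.05 with edgeR (0%), and none of the 9 genes was among them; 1309 genes (7.64%) had an unadjusted p under 0.05, and DESeq2 called 64 genes (0.374%), of which *Hbb-bt* was the one member. All 9 log2 fold changes were above 0, against 49.4% of all genes tested. Of the 9, 3 (*Hbb-bt*, *Slc4a1* and *Tfrc*) had an unadjusted p under 0.05 with higher values in *Pou4f3(Δ/+)* libraries, against 3.5% of all genes, and 0 of 9 with lower values, against 4.14%. The count of 3 rested on single libraries: it was 1 without wildtype replicate 5 (2.07% of all genes in that setting), 1 without replicate 1 (1.97%), 2 without replicate 2 (1.73%), 0 without replicates 1 and 2 (1.40%) and 8 without replicate 3 (8.67%). It was 4 with DESeq2 (3.16%) and 6 without the filter on low counts (3.36%). In 2 of 9 (*Hbb-bt* and *Slc4a1*) every *Pou4f3(Δ/+)* library lay above every wildtype library in CPM, against 6.07% of all genes, and in 0 of 9 every one lay below, against 6.59%. The 9 genes share cells and libraries, so their directions are not separate observations. In bulk RNA, more cells of a type and more RNA per cell cannot be told apart.

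Most of these genes ranked the libraries alike, and *Pou4f3(Δ/+)* replicate 3 ranked with the wildtype libraries in many of them. In 8 of 9 genes, all but *Hba-a2*, *Pou4f3(Δ/+)* replicates 1 and 2 had the 2 highest CPM values, against 14.9% of all genes tested. In 6 of 9 genes (*Hbb-bs*, *Hba-a1*, *Epor*, *Klf1*, *Gata1* and *Tfrc*) replicate 3 lay inside the wildtype range in CPM, as in 50.6% of all genes. The lowest library was wildtype replicate 5 in 8 of 9 genes, against 19% of all genes, and *Pou4f3(Δ/+)* replicate 3 in *Hba-a2*. Without replicates 1 and 2, the log2 fold changes of *Hbb-bs*, *Hba-a2*, *Epor*, *Klf1* and *Gata1* were below 0, from -0.69 for *Hba-a2* to -0.0029 for *Klf1*, and the lone *Pou4f3(Δ/+)* library was then assumed to vary like the wildtype group. The other values in that setting were 0.25 for *Hbb-bt*, 0.15 for *Slc4a1*, 0.05 for *Tfrc* and 0.01 for *Hba-a1*. Without replicate 1 alone the 5 precursor genes had values from 0.12 (*Epor*) to 0.32 (*Tfrc*), and without replicate 2 alone *Hbb-bs* had 0.09 and *Hba-a1* 0.15. Without wildtype replicate 5 alone, *Hbb-bs*, *Hbb-bt*, *Hba-a1* and *Hba-a2* had 0.21, 0.40, 0.28 and -0.18. *Slc4a1*, *Epor*, *Klf1*, *Gata1* and *Tfrc* then had 0.23, 0.24, 0.32, 0.21 and 0.54.

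The blood globins and the precursor genes peaked in different libraries. All 4 globins were highest in *Pou4f3(Δ/+)* replicate 2, where 20.8% of all genes had their highest CPM. All 5 precursor genes were highest in replicate 1, where 17.1% of all genes did. The margin was narrow for *Hbb-bt*, with 924 CPM in replicate 1 and 942 in replicate 2, and for *Gata1*, with 71.7 and 69.6. In replicate 1 the precursor genes were at 1.46 to 2.19 times their wildtype means and *Hbb-bs*, *Hbb-bt*, *Hba-a1* and *Hba-a2* at 1.18, 1.46, 1.20 and 0.935 times. In replicate 2 the 4 globins were at 1.44 to 1.56 times and the precursor genes at 1.20 to 1.46 times their wildtype means.

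**Figure D3:**
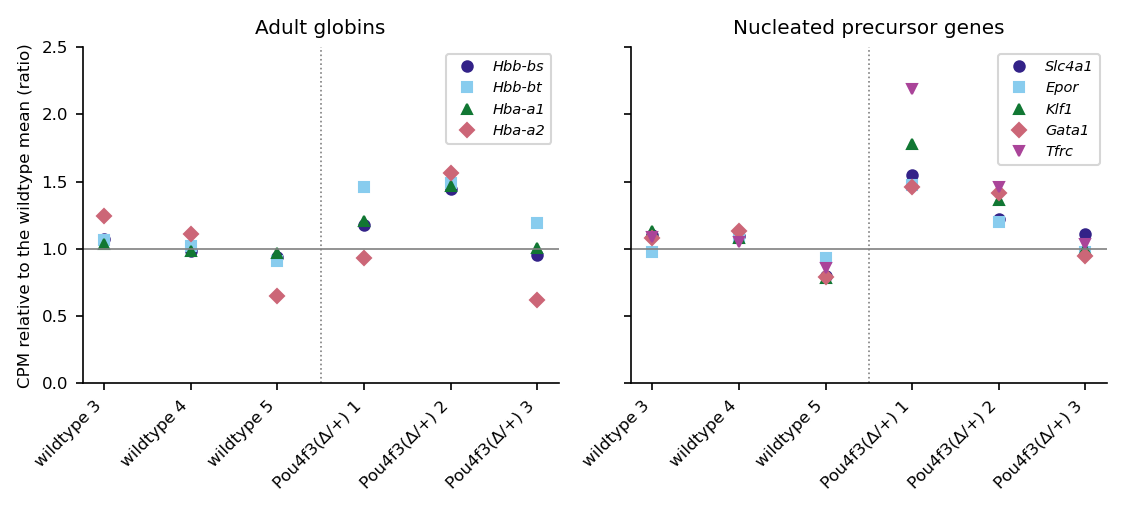
CPM of each gene as a ratio to its wildtype mean (vertical axis, 1 is the wildtype mean) in each of 6 libraries, adult globins on the left and precursor genes on the right. Globins peak in *Pou4f3(Δ/+)* replicate 2 (1.44 to 1.56) and precursor genes in replicate 1 (1.46 to 2.19), and wildtype replicate 5 is below 1 in every gene.

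The mean log2 CPM of the 4 globins minus that of the 5 precursor genes put this difference in 1 value per library, 3.12, 2.99 and 3.13 in wildtype and 2.58, 3.25 and 2.95 in *Pou4f3(Δ/+)*. Replicate 1 was lowest and replicate 2 highest of all 6 libraries, with the wildtype libraries between them. This score weighs each globin alike, so it rests in part on the uncertain split within pairs. The genotype means were 3.08 ± 0.0755 and 2.93 ± 0.334 (SD, n = 3 each), a difference of -0.16, which is smaller than the spread between *Pou4f3(Δ/+)* libraries and became 0.016 without replicate 1. The globins taken alone were 0.25 higher and the precursor genes 0.40 higher in mean log2 CPM in *Pou4f3(Δ/+)* libraries. Per gene, summed globin FPKM was 115, 104 and 120 times that of *Tfrc* in wildtype and 63.2, 108 and 108 times in *Pou4f3(Δ/+)* libraries, so that replicate 1 alone departed. Against *Slc4a1* it was 56.5, 52.4 and 68.0 times in wildtype and 44.8, 68.7 and 51.3 times in *Pou4f3(Δ/+)* libraries. For all 5 precursor genes, replicate 1 had the lowest of these ratios. Replicate 2 had the highest against *Slc4a1* and *Epor* (1049 times, wildtype replicate 3 at 908). Wildtype replicate 5 had the highest against *Klf1* (363 times, replicate 2 at 324), *Gata1* (539, replicate 2 at 465) and *Tfrc*.

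Other genes of red cell formation were taken from gene lists, and none passed the adjusted test with edgeR on all 6 libraries. Over the 3 lists of red cell membrane, erythroid transcription factor and late maturation genes, 42 of 42 tested genes had a log2 fold change above 0, against 49.4% of all genes, and 9 of 42 had an unadjusted p under 0.05 with higher values, against 3.5%. Without *Pou4f3(Δ/+)* replicates 1 and 2, 27 of 42 were above 0, against 48.7% of all genes. Without replicate 3, 42 of 42 were above 0, against 49.6% of all genes. In that setting 27 of 42 had an unadjusted p under 0.05 with higher values, against 8.67% of all genes. The latter count was 4 without wildtype replicate 5 (2.07% of all genes in that setting), 5 without replicate 1 (1.97%) and 3 without replicate 2 (1.73%). DESeq2 gave 17 of 42, against 3.16% of all genes, and limma-trend on log2(FPKM + 0.5) gave 6 of 42, against 3.33%. The list medians given below also rested on these libraries: without replicate 1 alone those of the membrane, transcription factor and maturation lists were 0.11, 0.11 and 0.20, and without replicates 1 and 2 they were 0.0153, 0.0069 and 0.12. Without wildtype replicate 5 they were 0.18, 0.18 and 0.18.

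All 16 genes of the red cell membrane and skeleton were tested, with a median log2 fold change of 0.28 against -0.0027 over all genes. *Rhag*, of the Rh blood group complex, had 33.6, 37.3 and 25.2 FPKM in wildtype and 62.6, 50.2 and 30.9 FPKM in *Pou4f3(Δ/+)* libraries. Its log2 fold change was 0.59 ± 0.24 (unadjusted p = 0.0377, adjusted p = 0.643 with edgeR). It was the 1 gene of 16 with an unadjusted p under 0.05, against 3.5% of all genes with higher values. The log2 fold change of *Epb41*, the gene of a red cell skeleton protein, was 0.26 ± 0.13, and that of *Aqp1*, a water channel gene also used by endothelium and cochlear fibrocytes, was 0.16 ± 0.09. *Aqp1* was the 1 gene of 16 whose groups did not overlap in CPM, a share close to the 6.07% of all genes.

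Of the erythroid transcription factors, 12 of 12 were tested, with a median log2 fold change of 0.23. *Gfi1b*, a repressor needed for red cell and platelet formation, had a value of 0.42 ± 0.16, *Bcl11a*, which silences embryonic globin genes, 0.38 ± 0.14, *Nfe2*, which acts at the globin locus and in megakaryocytes, 0.24 ± 0.11, and *Myb*, a factor of early progenitors, 0.23 ± 0.08. These 4 of 12 had unadjusted p under 0.05, against 3.5% of all genes with higher values, and adjusted p of 0.643 with edgeR. *Bcl11a* and *Myb* (2 of 12) did not overlap between groups in CPM, against 6.07% of all genes. *Bcl11a* did overlap in FPKM, where wildtype reached 13.15 and replicate 3 had 13.10. *Bcl11a* and *Myb* are also expressed in the B cell lineage. *Foxo3*, a factor of late erythroblasts, had 0.23 ± 0.11 and *Klf3*, a repressor induced by KLF1, 0.20 ± 0.10.

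Of 15 listed genes of late maturation, 14 were found under their symbols and tested, with a median log2 fold change of 0.31. *Alas2*, the rate-limiting enzyme of heme synthesis in red cells, had 294, 278 and 248 FPKM in wildtype and 366, 369 and 268 FPKM in *Pou4f3(Δ/+)* libraries (log2 fold change 0.29 ± 0.14, adjusted p = 0.647 with edgeR). *Tspan33*, a tetraspanin gene of erythroblasts and activated B cells, had 35.2, 33.2 and 25.7 FPKM against 48.8, 50.6 and 37.1 FPKM, with no overlap (0.54 ± 0.15, adjusted p = 0.643 with edgeR). *Bpgm*, whose enzyme makes the phosphoglycerate that lowers hemoglobin's oxygen affinity, and *Mkrn1*, a ubiquitin ligase gene, did not overlap either, with 0.34 ± 0.12 and 0.26 ± 0.08. In CPM, 3 of 14 genes were higher with no overlap, against 6.07% of all genes. *Slc25a37*, the mitochondrial iron importer mitoferrin, had 0.43 ± 0.18, with replicate 3 inside the wildtype range. These last 4 genes, of 14, had unadjusted p under 0.05, against 3.5% of all genes with higher values. *Car2*, a carbonic anhydrase gene, had 0.34 ± 0.18 with a p of 0.0918 from edgeR.

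Most genes of iron handling and of erythropoietin signalling are used by many cell types. Of 11 iron genes, 6 had a log2 fold change above 0, with a median of 0.03. *Tfr2*, the second transferrin receptor, which partners the erythropoietin receptor in erythroblasts, had 0.43 ± 0.18. Its groups did not overlap in CPM (1 of 11 genes, against 6.07% of all genes) but did in FPKM (wildtype up to 5.77, replicate 3 at 5.51). *Ncoa4*, the ferritin-degradation receptor, had -0.29 ± 0.12. Both had an unadjusted p under 0.05 and an adjusted p of 0.643 with edgeR. They were 1 of 11 higher and 1 of 11 lower, against 3.5% and 4.14% of all genes. The plasma iron carrier *Trf* had -0.18 ± 0.12 and the ferritin chains *Fth1* and *Ftl1* had 0.03 ± 0.11 and -0.12 ± 0.10. Of 11 tested genes of erythropoietin signalling, 9 were above 0 with a median of 0.10. None of them had an unadjusted p under 0.05 with edgeR, against 7.64% of all genes in either direction. Without replicate 3, 4 of the 11 had an unadjusted p under 0.05 with higher and 1 with lower values, against 8.67% and 8.69% of all genes, and 1 of them, *Pim1*, was among the 193 genes that passed after adjustment (0.78, adjusted p = 0.0242 with edgeR). Without replicates 1 and 2, 3 of the 11 had an unadjusted p under 0.05 with lower values, against 2.21% of all genes. In that setting 4 of 11 iron genes and 5 of 11 signalling genes were above 0, with medians of -0.05 and -0.0043. Over all 6 libraries the kinase gene *Jak2* had 0.10 ± 0.08, the survival gene *Bcl2l1* 0.26 ± 0.12 and the kinase gene *Pim1* 0.43 ± 0.32. *Epo* itself had 0 to 2 counts in any library, a level at which no difference was detectable.

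**Figure D4:**
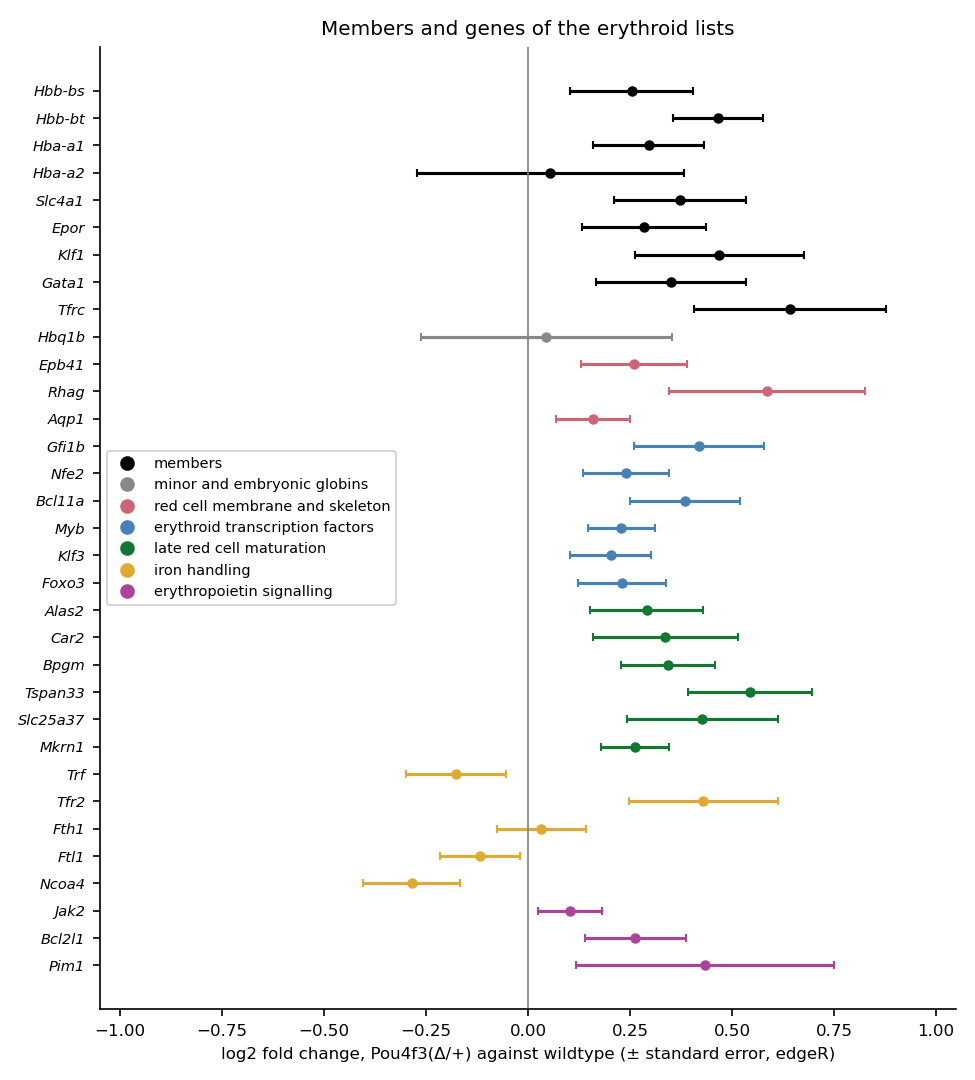
Log2 fold change of *Pou4f3(Δ/+)* against wildtype with its standard error (horizontal axis, edgeR on 6 libraries) for the 9 genes (black) and genes of each list that are named in the text (colours). All 9 points and the points of the membrane, transcription factor and maturation lists lie above 0, from 0.05 for *Hba-a2* to 0.64 for *Tfrc*, while the iron handling genes lie on both sides.

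Markers of other cells were read beside these results. The 9 B cell markers summed to 282, 286 and 235 CPM in wildtype and 539, 592 and 294 CPM in *Pou4f3(Δ/+)* libraries, so they too were highest in replicates 1 and 2, while replicate 3 lay near the wildtype libraries. Of the 9, 5 were higher with no overlap between groups, against 6.07% of all genes, and 9 had an unadjusted p under 0.05 with higher values, against 3.5%; the most abundant was *Cd79a*, a B cell receptor gene. The 7 proliferation markers, led by *Mki67*, summed to 2097, 2136 and 1652 CPM in wildtype and 2613, 2126 and 2170 CPM in *Pou4f3(Δ/+)* libraries, highest in replicate 1 and lowest in wildtype replicate 5 as the precursor genes were. Of the 7, 3 were higher with no overlap in CPM, against 6.07% of all genes. In 1 of 7 the unadjusted p was under 0.05 with higher values, against 3.5%. The 7 bone markers, led by *Ibsp*, summed to 1702 to 2481 CPM in wildtype and 1394 to 1668 CPM in *Pou4f3(Δ/+)* libraries, highest in wildtype replicate 5, and 3 of 7 were lower with an unadjusted p under 0.05, against 4.14% of all genes, as were 3 of 7 with no overlap, against 6.59%. *Ibsp* itself overlapped between groups, with 373, 365 and 563 FPKM in wildtype and 401, 480 and 246 FPKM in *Pou4f3(Δ/+)* libraries. The mitochondrial genome held 4.30% to 4.54% of the wildtype counts and 3.84% to 4.26% of those from *Pou4f3(Δ/+)* mice. None of these lists held a marker at 0 in all libraries, and their part in the results for the red cell genes was not tested.

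Genes whose log2 CPM varied most like the red cell genes were sought for the summed globins and for *Slc4a1*. Across the 6 libraries, the summed globins were most like *Kri1* (Pearson r = 0.997), *Klrc1* (0.995), *Zfp429* (0.994), *Fkbp5* (0.992) and *Hmgb1-ps8* (0.991), none of them a gene of the erythroid lists. *Slc4a1* was most like *C79130* (0.996), *Ranbp10* (0.995), *Tmem131* (0.993) and *Ammecr1* (0.993). With *Slc4a1*, the other precursor genes had r from 0.875 (*Epor*) to 0.968 (*Klf1*), and the globins from 0.423 (*Hba-a2*) to 0.855 (*Hbb-bt*), with 0.589 for *Hbb-bs* and 0.582 for *Hba-a1*. These values rest on 6 libraries from 2 genotypes and are descriptions. *Pou4f3(Δ/+)* replicates 1 and 2 stood apart on the first principal component and wildtype replicate 5 on the second.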

How the data were processed

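The authors deposited expected counts (not normalized, need not be whole) and FPKM values (per kilobase and scaled to the counted fragments) for 128603 transcripts of each library. The aligner and counter are not given in the sources used here; the submitters' processing notes name mm8 and DESeq2. Libraries were paired-end, from poly(A)-selected or rRNA-depleted RNA, and strand is not stated. Both units were summed over the transcripts of a symbol. Rounded counts were tested with edgeR 4.0.16 in R 4.3.3 (filterByExpr with minimum count 10 and minimum total count 15, TMM, quasi-likelihood test, all 6 libraries, no covariates, Benjamini-Hochberg over all genes). Alternatives were DESeq2 1.42.0, its size factors in edgeR, library sizes without globins, no filter, limma-trend 3.58.1 on log2(FPKM + 0.5), with 0.1 or 1 as pseudocount, summed globin pairs, and libraries left out. Tests were checked on simulated data. Log2 CPM used a prior count of 2. Coordinates are from GENCODE M21; no member exon overlapped another gene's. Members and lists were chosen with earlier results of these data known. Named genes were all members, the 3 most abundant of each list, every list gene with unadjusted p under 0.05, the 5 genes most like the globin sum and *Slc4a1*, and each marker list's most abundant gene. Items that this rule also selects are not all reported here.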

Additional observations from a re-analysis of the deposited data

How the results depend on the processing

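No paired analysis was possible because the genotypes share only 1 replicate number. The count of genes with an adjusted p under 0.05, which was 0 with edgeR, was 64 with DESeq2, 9 without the filter, 1 with limma on log2(FPKM + 0.1) and 6 without *Pou4f3(Δ/+)* replicates 1 and 2; with each library left out in turn it ranged from 0 to 193, the highest without *Pou4f3(Δ/+)* replicate 3 and 3 without wildtype replicate 4. Of 135 combinations of a member and an alternative, 126 kept their direction and side of the threshold. This count does not measure robustness, since no member passed with edgeR on all 6 libraries and many alternatives reuse those libraries. The summed pairs also enter the same value for both genes of a pair. *Hbb-bt* passed with DESeq2 (0.47) and without *Pou4f3(Δ/+)* replicate 3 (0.57); left out in turn, its log2 fold change ranged from 0.40 to 0.57. Without replicates 1 and 2 the direction turned for *Hbb-bs* (-0.0672), *Hba-a2* (-0.69), *Epor* (-0.0340), *Klf1* (-0.0029) and *Gata1* (-0.0765). *Hba-a2* also turned without wildtype replicate 5 (-0.18) or *Pou4f3(Δ/+)* replicate 2 (-0.36), and ranged from -0.36 to 0.32. The globin share difference was 0.534 percentage points of FPKM and -0.0010 of counts without replicates 1 and 2, against 0.162; left out in turn, it ranged from 0.0771 (without replicate 2) to 0.244 (without replicate 3). The globin minus precursor difference ranged from -0.32 (without *Pou4f3(Δ/+)* replicate 2) to 0.016 (without replicate 1), against -0.16. The causes were not tested. *Epor*, with 341 to 613 counts, had the fewest counts of the 9 genes.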

Other observations

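Markers of other blood and vessel cells were also found in these cochleae. The 10 megakaryocyte and platelet markers, a lineage that shares *Gata1*, *Gfi1b* and *Nfe2* with red cells, were led by the platelet chemokine gene *Ppbp*. They summed to 950 to 1140 CPM in wildtype and 940 to 1367 CPM in *Pou4f3(Δ/+)* libraries. Of the 10, 0 had an unadjusted p under 0.05 with edgeR, against 7.64% of all genes in either direction. The 9 neutrophil markers, led by the granule gene *Ngp*, summed to 13379 to 16168 CPM and 13370 to 16691 CPM. Of these, 1 of 9 was lower at an unadjusted p under 0.05, against 4.14% of all genes. Of 9 mast cell, basophil and eosinophil markers, 6 were tested, and 2 of 6 were higher at an unadjusted p under 0.05, against 3.5% of all genes. The list, led by the eosinophil granule gene *Prg2*, summed to 390 to 598 CPM and 417 to 776 CPM, highest in *Pou4f3(Δ/+)* replicate 3. T and natural killer cell markers, led by *Nkg7*, summed to 65.1, 56.5 and 55.8 CPM in wildtype and 71.7, 89.4 and 57.9 CPM in *Pou4f3(Δ/+)* libraries, with 4 of 9 higher at an unadjusted p under 0.05, against 3.5% of all genes. Their highest libraries were *Pou4f3(Δ/+)* replicates 2 and 1 and their lowest was wildtype replicate 5, as for *Hbb-bs*, *Hbb-bt* and *Hba-a1*. *Nkg7* itself did not take this order, with 50.2, 43.8 and 39.4 FPKM in wildtype and 33.3, 40.8 and 44.4 FPKM in *Pou4f3(Δ/+)* libraries, where replicate 1 was the lowest of all 6. Macrophage markers, led by *Vcam1*, summed to 947, 886 and 956 CPM in wildtype and 1031, 1178 and 816 CPM in *Pou4f3(Δ/+)* libraries, also highest in replicates 2 and 1. Among them 1 of 8 was higher at an unadjusted p under 0.05, against 3.5% of all genes. The part of these cells in the results for the red cell genes was not tested. Endothelial markers, led by *Vwf*, summed to 414 to 463 CPM and 412 to 457 CPM, with 0 of 8 at an unadjusted p under 0.05, against 7.64% of all genes. The 9 cochlear markers summed to 5735 to 7688 CPM in wildtype and 5472 to 5788 CPM in *Pou4f3(Δ/+)* libraries.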
